A study of Mus musculus with 2 samples.

Results

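In a brain library of cells sorted for a Nestin-GFP reporter, 57 of 4151 kept cells (1.37%, exact 95% interval 1.04 to 1.78%) met a transcript rule for brain perivascular and meningeal fibroblasts. They were chosen by counts of unique molecular identifiers (UMIs), each of which stands for 1 captured mRNA molecule. A member had 5 or more UMIs of Dcn, Col1a2 and Slc6a13 together and 3 or more of Dcn and Slc6a13 together. It also had at most 1 UMI of the pericyte gene Atp13a5 and fewer than 5 UMIs of the endothelial genes Cldn5, Flt1 and Pecam1 together. Both libraries of the study together held 9759 kept cells. The marker that the rule did not use, Gjb2, which encodes the gap junction protein connexin 26, had UMIs in 51 of the 57 cells. The cells are called fibroblast-like here, because a dissociated cell carries no record of whether it lay along a vessel or in the meninges.

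Fibroblasts of the brain lie in the pia, arachnoid and dura and along penetrating vessels, between the vessel wall and the glial limiting membrane. They lay down fibrillar collagen and part of the basement membrane, take up solutes from cerebrospinal fluid through membrane transporters, and release retinoic acid, IGF2, CXCL12 and bone morphogenetic proteins. Meningeal cells are coupled by connexins, and the arachnoid layer adds tight junctions. Mural cells, which are pericytes and smooth muscle cells, wrap the same vessels and share Pdgfrb and Vtn with fibroblasts.

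The study sorted GFP-positive cells by flow cytometry from trypsin-dissociated brain and lung of adult Nestin-GFP mice aged about 6 weeks, and captured the cells of each tissue once with a droplet 3′ system. In these mice GFP is driven by regulatory elements of Nestin, the gene of an intermediate filament of neural stem cells, and whether each fibroblast-like cell carried GFP or passed the gate without it was not tested. Both samples are labelled with the strain C57BL/6, the study's methods give CD1 or mixed CD1 and C3H as the background of the wild-type mice with which transgenic mice were bred, and the number of mice per library was not stated. Each tissue had 1 library from 1 biological replicate, so no test or p-value is given. A lung class of 708 of 5608 kept lung cells (12.6%, 11.8 to 13.5%) met the same rule and served as the comparison across tissues, where tissue, library and mice cannot be told apart. The 57 cells held 337602 UMIs, with 1359, 5375 and 12122 UMIs per cell as the lowest, median and highest, and a median of 2250 genes. The median UMIs per cell were 3004 in 236 mural-like cells (5 or more UMIs of Vtn, Rgs5, Pdgfrb and Atp13a5), 3784 in 279 endothelial-like cells (5 or more of Cldn5, Flt1 and Pecam1, outside the first classes), 4325 in the remaining 3579 brain cells and 9156 in the lung class. Of 4640 brain and 5981 lung barcodes, 15 occurred in both libraries, and none of these was a member.

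Levels are given as the summed UMIs of a gene in a class per 1000000 UMIs of that class (CPM). The range in parentheses after a ratio is its exact 95% binomial interval, which covers counting error and neither the spread between animals nor that between cells. A gene is called higher or lower when its CPM differed by at least 4-fold, with the lower class set to at least 3 UMIs, at least 10 UMIs in the higher class and at least 20 in both classes together. By this size rule, 566 of 15498 genes (3.65%) were higher in fibroblast-like cells than in all other brain cells and 818 (5.28%) were lower. Against mural-like cells 239 of 7924 genes (3.02%) were higher and 515 (6.5%) lower, and against the lung class 384 of 11204 (3.43%) were higher and 336 (3%) lower. The median ratio over all compared genes was 0.631 against all other brain cells, 0.816 against mural-like cells and 1.01 against the lung class. These shares and medians are the background for every gene list below, and genes that chose the cells are left out of the counts.

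The values that chose the cells are given first, as a description. Dcn, which encodes the proteoglycan decorin, had 0, 19 and 222 UMIs per cell as the lowest, median and highest over the 57 cells. Col1a2, a chain of type I collagen, had 1, 13 and 68 UMIs, and Slc6a13, a carrier of GABA and taurine, had 0, 12 and 36 UMIs. Thus 55 cells had a Dcn UMI, 57 a Col1a2 UMI and 50 a Slc6a13 UMI, and 7 cells met the rule without Slc6a13. The sum of the 3 genes ran from 6 to 290 with a median of 51, and 3 members had a sum under 10. Just outside the rule lay 1 cell with a sum of 4, 5 cells with too few UMIs of Dcn and Slc6a13, 12 cells that failed only on Atp13a5 and 1 that failed only on the endothelial genes. Among members, 2 cells had 1 Atp13a5 UMI and 4 had a UMI of the endothelial rule genes. Most members, 50 of 57, also passed the sum used for mural-like cells, and 4 would have passed it without Vtn, so members were taken out of the mural-like class first.

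Several markers of other brain cells were also found in the fibroblast-like cells, and others were at 0. Of 10 mural markers, Rgs5, Kcnj8 and Higd1b were at 0 UMIs, and Notch3, Abcc9, Cspg4 and Atp13a5 had 2 or 3. Vtn (vitronectin) had 2108 UMIs in 53 cells, Pdgfrb (a PDGF receptor) had 127 in 44, and Ndufa4l2 (a mitochondrial protein) had 31 in 18. Of 12 endothelial markers, Pecam1, Tek and Esam were at 0, while Itm2a had 257 UMIs in 50 cells and Cdh5, the vascular endothelial cadherin, had 33 in 23. Itm2a was at 761 CPM in members and 4339 in endothelial-like cells, and Cdh5 at 97.7 and 505, and their part in the ratios below was not tested. Cldn5, which the rule limited, had 4 UMIs in 2 cells, against 10043 CPM in endothelial-like cells. The neuroblast and neuron list summed to 352 CPM in members and 8292 in the remaining brain cells, and 32 members had none of its UMIs. Stmn2, a neuronal tubulin regulator, had 12 UMIs in 3 members, 10 of them in 1 cell. All 12 Mrc1, 15 C1qa and 8 Pf4 UMIs, which mark macrophages, lay in 1 member. The astrocyte and stem cell list summed to 1729.8 CPM in members, 1517 in mural-like, 261 in endothelial-like and 4274 in the remaining brain cells. In members most of it came from Slc1a3, a glutamate transporter, with 324 UMIs in 50 cells, and Gja1 (connexin 43), with 165 in 50. The oligodendrocyte lineage list summed to 823 CPM in members and 644 in mural-like cells, with UMIs in all but 3 members, and 180 of its 278 UMIs were of Pdgfra, which fibroblasts share, and 27 were of Mbp. The part of either list in the results was not tested. The astrocyte gene Gfap, the oligodendrocyte genes Mog, Olig1 and Olig2, and the smooth muscle genes Myh11 and Cnn1 were at 0 UMIs in members. Scrublet called 44 brain cells doublets and no member.

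Gjb2 and Gjb6 encode connexins 26 and 30, whose hexamers form channels between neighbouring cells, and both were higher in the fibroblast-like cells than in all other brain cells, in mural-like cells and in the lung class. Gjb2 lies at chr14:57098600-57104702 and Gjb6 at chr14:57123303-57133611 on the minus strand of mouse build GRCm38.p6 in the GENCODE annotation, from which all gene positions and distances here are taken, with 18.6 kb between the genes. Gjb2 had 0, 4 and 23 UMIs per member as the lowest, median and highest, or 948 CPM in all. Its level was 25.3 CPM in mural-like cells, 2.26 in the remaining brain cells and 0.162 in the lung class, and no UMI was found in endothelial-like cells, where 3 UMIs would be 2.78 CPM. The level was 303-fold (229 to 406) above all other brain cells and 37.5-fold (24.1 to 61.4) above mural-like cells. A Gjb2 UMI was found in 89.5% of members and 1.03% of the remaining brain cells, and after thinning to 1000 UMIs per cell the shares were 54.1% and 0.264%. Gjb6 had 0, 3 and 15 UMIs per member and 601 CPM, 10.3-fold (8.83 to 11.98) above all other brain cells and 10.6-fold (7.71 to 14.9) above mural-like cells. Both genes had UMIs in 45 members, 1 of the pair in 9 and neither in 3. Gja1 (connexin 43), which astrocytes also make, was at 489 CPM in members and 375 CPM in the remaining brain cells. The mural connexins Gjc1 and Gja4 were lower than in mural-like cells, with ratios of 0.0361 (0.0155 to 0.0717) and 0.0340 (0.00696 to 0.101). In the connexin list, 2 of 8 compared genes were higher and 1 lower, with a median ratio of 0.784 against all other brain cells. Against mural-like cells 2 of 5 were higher and 2 lower, with a median of 3.10. Connexin genes Gjb1, Gjb5, Gja3, Gja5, Gja6 and Gjd2 had no UMI in members.

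The promoters of this pair are shown because the 2 genes are neighbours. Gjb2 had UMIs in 51 of 57 members, Gjb6 in 48 and both in 45. Whether the pair was found together more often than the separate counts give was not tested. Each sequence runs from 250 bases before to 50 bases after the start of the gene, 5′ to 3′ on its own strand, in lower case with GGGCGG or its reverse complement CCGCCC, the GC box of Sp1-family factors, in capitals. The windows are chr14:57104653-57104952 for Gjb2 and chr14:57133562-57133861 for Gjb6, both on the minus strand (RefSeq, GRCm38.p6).
Gjb2: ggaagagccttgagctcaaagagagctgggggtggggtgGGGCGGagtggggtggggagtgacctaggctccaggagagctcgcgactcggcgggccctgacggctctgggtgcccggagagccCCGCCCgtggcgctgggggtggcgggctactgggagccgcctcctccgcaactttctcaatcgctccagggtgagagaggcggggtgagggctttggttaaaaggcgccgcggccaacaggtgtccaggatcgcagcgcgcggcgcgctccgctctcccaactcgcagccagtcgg
Gjb6: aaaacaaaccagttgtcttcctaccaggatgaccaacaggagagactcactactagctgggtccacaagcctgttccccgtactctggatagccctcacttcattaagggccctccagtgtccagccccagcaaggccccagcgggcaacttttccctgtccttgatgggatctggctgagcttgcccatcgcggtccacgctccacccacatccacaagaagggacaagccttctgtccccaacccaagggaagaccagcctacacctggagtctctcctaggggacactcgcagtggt
The Gjb2 window held 2 such matches and 70% G and C, and the Gjb6 window held 0 and 57.3%, beside a median of 52.7% over 32851 promoters of this length. The letters GGGCGG on either strand were found in 35.7% of those promoters. TATAAA (the TATA box, in 13.6% of promoters) and GTAAACA (a forkhead factor motif, in 3.65%) were also searched on both strands and had no match in either window. A match is a run of letters and is no evidence of a bound factor.

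**Figure D1:**
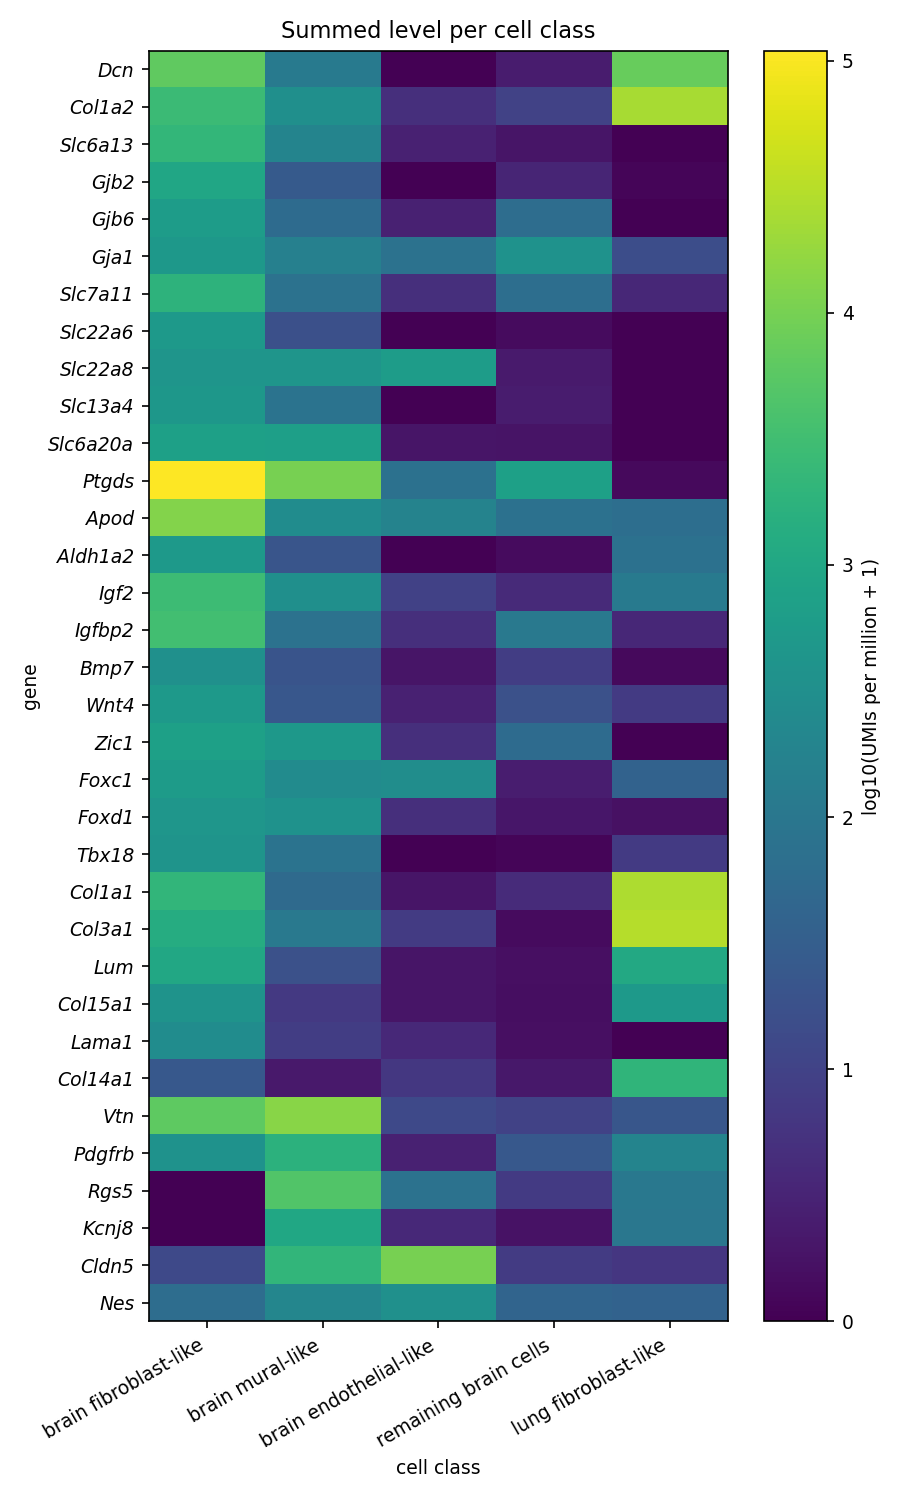
Summed level of 34 genes (rows) in 5 cell classes (columns), coloured by log10 of CPM plus 1. The connexins Gjb2 and Gjb6, the transporter Slc22a6 and Ptgds are bright in brain fibroblast-like cells and dark in the lung class, while Col1a1 and Col3a1 are brightest in the lung class and Rgs5 and Kcnj8, at 0 in members, are bright in mural-like cells.

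Transporters move organic ions, amino acids and sulfate between cerebrospinal fluid and the meninges. Of 38 compared genes in the transporter list, 13 were higher than in all other brain cells and 5 lower, with a median ratio of 1.65. Against mural-like cells 7 of 30 were higher and 6 lower, with a median of 1.04. Slc22a6 (OAT1), a carrier of organic anions, had 0, 3 and 10 UMIs per member and 527 CPM, 506-fold (318 to 848) above all other brain cells. Its neighbour Slc22a8 (OAT3), 6.20 kb away on chromosome 19, was at 429.5 CPM in members, 416 in mural-like and 606 in endothelial-like cells, and 8.05-fold (6.72 to 9.59) above all other brain cells as 1 class. Slc22a6 had UMIs in 45 members, and 32 members had UMIs of both anion carriers. Slc7a11, the cystine and glutamate exchanger, had 0, 10 and 32 UMIs per member and 1828 CPM, 23.4-fold (18.1 to 30.7) above mural-like cells. Slc13a4, a sulfate carrier, was at 462 CPM and 95.3-fold (73.3 to 125) above all other brain cells, and Slc13a3, which carries dicarboxylates, was at 148 CPM and 17.5-fold (12.5 to 24.2) above them. Slc6a20a, a proline transporter, was at 726 CPM in members and 688 in mural-like cells, against 0.869 in the remaining brain cells. Slc6a12, the betaine carrier 5.34 kb from Slc6a13 on chromosome 6, had 41 UMIs in 17 members. The glucose carrier of the blood-brain barrier, Slc2a1, was at 32.6 CPM in members and 1715 in endothelial-like cells.

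Ptgds, which encodes prostaglandin D2 synthase, a carrier of small lipids in cerebrospinal fluid, held 10.9% of all UMIs of the fibroblast-like cells. It had 0, 328 and 3681 UMIs per cell as the lowest, median and highest, which was up to 49.6% of the UMIs of 1 cell. At 109469 CPM its level was 101-fold (99.1 to 103) above all other brain cells and 10.97-fold (10.7 to 11.2) above mural-like cells. Apod, a lipid-binding apolipoprotein, had UMIs in every member, with 1, 43 and 270 UMIs, and was 140.2-fold (133 to 148) above all other brain cells. Apoe, the main lipid carrier of the brain, was at 14408 CPM in members and 5129.6 in the remaining brain cells. Lpar1, a receptor for lysophosphatidic acid, was at 385 CPM in members and 48.1 in mural-like cells. Fabp5 and Fabp7, fatty acid carriers of neural stem cells, were lower than in all other brain cells, with ratios of 0.0648 (0.0401 to 0.0990) and 0.0246 (0.00507 to 0.0719). In this lipid list, 6 of 12 compared genes were higher and 2 lower, with a median ratio of 8.47 against all other brain cells. Against mural-like cells 6 of 11 were higher and 1 lower, with a median of 4.92.

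Over the retinoid and steroid list, 8 of 19 compared genes were higher and 0 lower, with a median ratio of 3.10 against all other brain cells. Against mural-like cells 6 of 14 compared genes were higher and 1 lower, with a median ratio of 3.04. Aldh1a2, the dehydrogenase that makes retinoic acid in meninges, had 0, 2 and 15 UMIs per cell and 539 CPM, 431-fold (281 to 689.8) above all other brain cells and 26.4-fold (16.01 to 46.2) above mural-like cells. Aldh1a1, a related dehydrogenase, was at 459 CPM and 11.2-fold (7.70 to 16.8) above mural-like cells. Rdh10, which makes retinaldehyde, was at 68.1 CPM in members. Crabp2, which carries retinoic acid to its receptor, had 20 UMIs in 12 cells, and the retinoic acid receptor Rarb had 18 in 10. The breakdown enzyme Cyp26b1 had 1 UMI. Of the 47 Rbp4 UMIs, a plasma retinol carrier, 51.1% lay in 1 cell.

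Fibrillar collagens bear the tension of connective tissue, and 5 of the 9 compared in brain were higher in the fibroblast-like cells. Col1a1, the other chain of type I collagen, had 0, 11 and 42 UMIs per member and 2082 CPM, 395-fold (321 to 492) above all other brain cells and 38.5-fold (28.4 to 53.2) above mural-like cells. Col3a1 (type III collagen) was at 1321 CPM and 12.1-fold (9.61 to 15.3) above mural-like cells, and the type V chains Col5a1 and Col5a2 were at 71.1 and 258 CPM. For the fibrillar list, 5 of 9 compared genes were higher and 0 lower, with a median ratio of 5.92 against all other brain cells, and 5 of 7 compared genes were higher and 1 lower, with a median ratio of 12.1 against mural-like cells. Type VI collagen, a beaded filament around cells, was higher than in mural-like cells for Col6a1, Col6a2 and Col6a3, at 25.7-fold (12.98 to 57.96), 28.6-fold (11.6 to 91.2) and 19.3-fold (8.23 to 55.2). Col12a1, which binds along fibrils, was 73.8-fold (24.5 to 365) above mural-like cells, where it had 3 UMIs. The membrane collagens Col13a1 and Col23a1 were at 198 and 178 CPM and were also higher than in mural-like cells. Of the 46 Col8a1 UMIs, 91.3% lay in 1 cell. In the list of other collagens, 10 of 12 compared genes were higher and 1 lower, with a median ratio of 11.5 against mural-like cells.

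Basement membranes, the sheets of type IV collagen and laminin around vessels and under the pia, are built by several cell types. Over the 21 compared genes of the basement membrane list, 16 were higher than in all other brain cells and 0 lower, with a median ratio of 10.8, whereas against mural-like cells 5 of 18 were higher and 2 lower, with a median of 1.35. The widespread chains of type IV collagen, Col4a1 and Col4a2, were at 743 and 388 CPM in members and 1060.2 and 645 in mural-like cells. Col4a5 and Col4a6, which lie head to head on chromosome X with starts 1309 bases apart, were 27.7-fold (16.6 to 49.5) and 18.1-fold (7.66 to 51.8) above mural-like cells. Among laminins, which seed the membrane, Lama1 had 0, 1 and 8 UMIs per member and was 38.6-fold (17.1 to 108) above mural-like cells. Lama2 was at 255 CPM in members and 206 in mural-like cells, and Lamc3 was at 302 and 167. Col15a1 and Col18a1, the endostatin-type collagens, were 63.01-fold (26.3 to 197) and 4.92-fold (3.13 to 7.91) above mural-like cells, and 24 members had a Col15a1 UMI. Nid1 and Lamc1, the nidogen and laminin chains that join the network, were at 518 and 501 CPM in members and 516 and 495 in mural-like cells. Agrn (agrin) and Col4a3 were lower than in mural-like cells, with ratios of 0.209 (0.112 to 0.360) and 0.0985 (0.0116 to 0.375).

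Small leucine-rich proteoglycans space collagen fibrils, and in their list 4 of 8 compared genes were higher and 2 lower, with a median ratio of 4.32 against mural-like cells. Lum (lumican), which lies 47.0 kb from Dcn on chromosome 10, had 0, 3 and 47 UMIs per member and 1057 CPM, 811-fold (541 to 1271) above all other brain cells and 62.8-fold (36.9 to 116) above mural-like cells. Fmod (fibromodulin), Ogn (osteoglycin) and Prelp were 9.66-fold (6.79 to 14.04), 4.96-fold (3.61 to 6.88) and 4.83-fold (3.64 to 6.45) above mural-like cells. The Prelp ratio was 3.76 with mixed cells left out of the mural-like class, as described below, and that of Ogn was 3.64 under a stricter choice of members. Aspn (asporin) had no UMI in members, where 3 UMIs would be 8.89 CPM, and 331 CPM in mural-like cells. Ecm2 was also lower than in mural-like cells, with a ratio of 0.163 (0.0828 to 0.292). In the elastic and adhesive list, 13 of 25 compared genes were higher and 2 lower, with a median ratio of 4.50 against mural-like cells. Spp1 (osteopontin) had 0, 1 and 191 UMIs per member, and 36.6% of its UMIs lay in 1 cell, without which its level fell from 1546 to 1000.3 CPM. Efemp1 and Fbln5, which organise elastic fibres, were 45.4-fold (21.4 to 115) and 38.8-fold (14.4 to 147) above mural-like cells. Elastin itself (Eln, 29 UMIs in 4 cells), Mfap5 (66 in 5) and fibronectin (Fn1, 26 in 3) were each carried by few members. Sparc, which binds collagen, was at 4553 CPM in members, 3271 in mural-like and 4603 in endothelial-like cells.

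Collagen is trimmed, folded and cross-linked by its own enzymes, and in their list 5 of 14 compared genes were higher and 0 lower, with a median ratio of 1.96 against mural-like cells. Pcolce, which speeds removal of the procollagen C-terminus, was at 1066 CPM and 7.45-fold (6.04 to 9.24) above mural-like cells, and Adamts2, which removes the N-terminus, had 42 UMIs in 29 members and 1 UMI in mural-like cells, a ratio of 103 (17.6 to 4179). Serpinh1, the collagen chaperone, was at 871 CPM against 519.8 in mural-like cells. The cross-linking oxidases Lox and Loxl1 were 12.9-fold (4.36 to 51.8) and 15.1-fold (7.08 to 36.9) above mural-like cells. Among protease inhibitors, Serpinf1 (pigment epithelium-derived factor, which restrains vessel growth) was 27.1-fold (18.4 to 41.4) above mural-like cells and Timp2 8.21-fold (5.77 to 11.9) above them. Of the proteases, Ctsk, Mmp2 and Adamts5 were 6.91-fold (4.36 to 11.3), 7.14-fold (3.38 to 16.4) and 7.79-fold (2.99 to 23.8) above mural-like cells. In the protease and inhibitor list, 8 of 16 compared genes were higher and 0 lower, with a median ratio of 4.90.

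The layers of the meninges differ in their marker genes. Of the pial and perivascular list, 13 of 15 compared genes were higher and 0 lower, with a median ratio of 56.8 against all other brain cells, and 9 of 12 compared genes were higher and 0 lower, with a median ratio of 27.5 against mural-like cells. S100a6, a calcium-binding protein, had 0, 3 and 48 UMIs per member and was 50.2-fold (32.1 to 83.1) above mural-like cells. Cyp1b1 and Bmp6 were 16.4-fold (8.09 to 37.6) and 71.4-fold (11.8 to 2916) above mural-like cells, with 1 Bmp6 UMI in that class. For the dural and border list, 5 of 12 compared genes were higher and 1 lower, with a median ratio of 3.40 against all other brain cells. Against mural-like cells 3 of 8 were higher and 0 lower, with a median of 2.71. With mixed cells left out of the mural-like class, as described below, 6 genes of the dural and border list were higher and 0 lower. Within this list, Clec3b (tetranectin) had 0, 1 and 54 UMIs per member and was 65.6-fold (36.1 to 133) above mural-like cells. Mgp, an inhibitor of calcification, had 0, 1 and 436 UMIs. Dkk2 and Thbs4 had no UMI in members, Ccl11 had none, and Alpl had 19 UMIs in 3 cells. In the arachnoid barrier list, 3 of 13 compared genes were higher and 1 lower, with a median ratio of 2.13 against all other brain cells. Against mural-like cells 2 of 9 were higher and 2 lower, with a median of 0.660. With mixed cells left out of the mural-like class, 4 genes of this list were higher and 0 lower. The keratins Krt8 and Krt18 of the arachnoid list were at 0, and Cdh1 and Slc47a1 had 3 and 1 UMIs. Ctgf, a matricellular protein of that list, had UMIs in 19 members, with 52.1% of its 163 UMIs in 1 cell. Cldn11, the claudin of the arachnoid barrier and of myelin, had 25 UMIs in 6 members, and Abcb1a, an efflux pump of the barrier, had 1. Kl (klotho), a co-receptor for FGF23, had 38 UMIs in 23 members and 113 CPM against 1 UMI in the remaining brain cells, while the choroid plexus epithelial genes Ttr, Folr1, Otx2 and Kcne2 had no UMI in members.

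**Figure D2:**
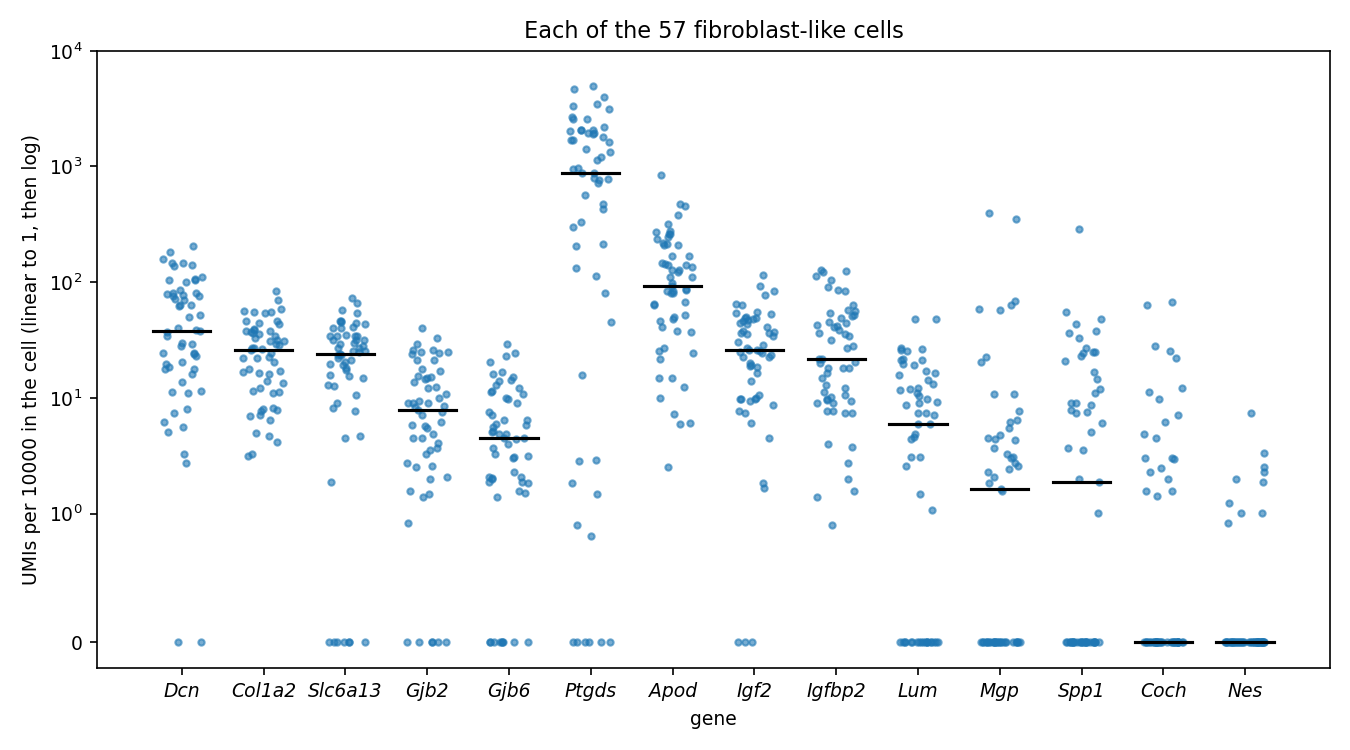
UMIs of 14 genes per 10000 UMIs of the cell, on an axis that is linear to 1 and logarithmic above, with 1 point for each of the 57 fibroblast-like cells and a bar at the median. Col1a2, Apod and Igfbp2 were found in all 57 cells, Ptgds spread from 0 to 4961 per 10000, and Coch and Nes had a median of 0.

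Transcription factors of mesenchyme and of dorsal neural tissue formed the next list. Against all other brain cells, 20 of 44 compared factors were higher and 1 lower (median ratio 4.10), and against mural-like cells 8 of 36 were higher and 6 lower (median 1.33). Foxc1, a forkhead factor required for the meninges, had 0, 3 and 9 UMIs per member and 581 CPM, with 271 CPM in mural-like and 291 in endothelial-like cells. Foxc2 and Tbx18, factors of perivascular mesenchyme, were 8.09-fold (3.36 to 22.3) and 4.995-fold (3.71 to 6.78) above mural-like cells. Foxd1 was at 450.2 CPM in members and 373 in mural-like cells, and 0.984 in the remaining brain cells. Osr1 and Msx1 were 11.96-fold (5.22 to 31.96) and 6.95-fold (3.93 to 12.9) above mural-like cells. Twist1 and Prrx2, general factors of mesenchyme, were at 139 and 94.8 CPM. Heyl, a target of Notch3 in mural cells, was lower than in mural-like cells with a ratio of 0.220 (0.130 to 0.351). Otx2, Lmx1b, Foxf1, Tbx4 and Tbx5 had no UMI in members, nor did any of 16 Hox genes with counts.

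The Zic genes encode zinc finger factors of dorsal neural tissue and meninges, and 4 of them lie as pairs of neighbours. Zic1 had 0, 4 and 16 UMIs per member and 717 CPM. Zic1 and Foxc1 each had UMIs in 49 members, and 46 members had both. The level of Zic1 was 496 CPM in mural-like, 3.71 in endothelial-like and 57.4 in the remaining brain cells. Zic4, on the opposite strand, was at 317 CPM in members and 168 in mural-like cells. In the GENCODE gene models these 2 genes overlap, with Zic4 starting 3397 bases inside Zic1, and neither the annotation nor the use of strand in counting is given in the sources used here, so the levels of the pair are uncertain. The RefSeq starts that the promoter windows use lie 3204 bases apart and point away from each other, without overlap. Zic2 and Zic5, 9.76 kb apart on chromosome 14, were at 479.9 and 118 CPM. The Zic1 and Zic4 promoters are shown, in the same manner as for the connexins, as a neighbouring pair on opposite strands. The windows are chr9:91365719-91366018 on the minus strand for Zic1 and chr9:91368722-91369021 on the plus strand for Zic4 (RefSeq, GRCm38.p6).
Zic1: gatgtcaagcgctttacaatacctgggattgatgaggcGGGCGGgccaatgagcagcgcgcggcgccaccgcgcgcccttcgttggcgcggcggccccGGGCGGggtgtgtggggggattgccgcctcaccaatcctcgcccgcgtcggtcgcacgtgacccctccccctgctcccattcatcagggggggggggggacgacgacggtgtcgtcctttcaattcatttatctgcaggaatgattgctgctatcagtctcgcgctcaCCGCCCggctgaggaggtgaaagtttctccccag
Zic4: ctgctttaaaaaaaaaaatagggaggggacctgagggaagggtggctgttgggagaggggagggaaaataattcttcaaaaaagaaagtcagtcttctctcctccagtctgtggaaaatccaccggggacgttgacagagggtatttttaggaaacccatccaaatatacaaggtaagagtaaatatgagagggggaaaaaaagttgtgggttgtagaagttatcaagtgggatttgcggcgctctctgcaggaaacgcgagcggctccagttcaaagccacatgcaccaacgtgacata
The Zic1 window held 3 matches to GGGCGG or CCGCCC, shown in capitals, with 65.3% G and C, and the Zic4 window held 0 with 46%. Neither window had TATAAA or GTAAACA on either strand.

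Secreted factors of the insulin-like, BMP and Wnt families act on neighbouring vessels, glia and neurons. Igf2 had 0, 15 and 77 UMIs per member and 2847 CPM, 166-fold (147 to 189) above all other brain cells and 8.89-fold (7.76 to 10.2) above mural-like cells. H19, the imprinted noncoding gene next to Igf2 on chromosome 7, had no UMI in members or mural-like cells. Igfbp2, which binds IGF2, had UMIs in every member, with 1, 12 and 97 UMIs, and was 41.7-fold (32.4 to 54.4) above mural-like cells. Of the list of IGF-binding proteins, 2 of 5 compared genes were higher and 2 lower, with a median ratio of 2.35 against mural-like cells. Igfbp4 was 4.37-fold (3.21 to 5.99) above them, but the ratio was 2.64 without the 4 members that had over 50 Mgp UMIs and no Slc6a13. Igfbp7 and Igfbpl1 were the lower members, with ratios of 0.147 (0.126 to 0.171) and 0.0901 (0.0326 to 0.200). The Igfbp7 ratio was 0.436, no longer 4-fold lower, when cells with many genes were kept, and 0.0345 without the same 4 members. The BMP ligands Bmp2, Bmp6 and Bmp7 were at 181, 85.9 and 335 CPM, and Bmp7 was 17.4-fold (10.3 to 31.5) above mural-like cells. Bmp2 had 2 UMIs in mural-like cells, a ratio of 75.1 (19.9 to 634). Bmp4, also a BMP ligand, was at 97.7 CPM in members and 78.2 in mural-like cells. The Wnt ligands Wnt4, Wnt5a and Wnt6 were 22.2-fold (13.8 to 37.7), 11.2-fold (7.63 to 16.8) and 7.61-fold (3.76 to 16.6) above mural-like cells. Ptn (pleiotrophin), a heparin-binding factor, was at 6359.6 CPM in members and 3153 in mural-like cells, and Edn3 (endothelin 3) was at 370.3 and 93.9. In the list of growth factors, 16 of 51 compared genes were higher and 2 lower, with a median ratio of 1.46 against all other brain cells, and 10 of 28 compared genes were higher and 6 lower, with a median ratio of 2.35 against mural-like cells.

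Fibroblasts and mural cells are commonly told apart by their PDGF receptors. Pdgfra had 0, 2 and 17 UMIs per member and 533 CPM, 23.3-fold (14.5 to 39.6) above mural-like cells, and 48 members had its UMIs. Pdgfrb, which helped to choose the mural-like cells, was at 376 CPM in members and 1722 in mural-like cells. It had UMIs in 44 members, and 38 members had UMIs of both receptors. Fgfr1 was 4.64-fold (3.36 to 6.45) above mural-like cells and Fgfr2 5.66-fold (2.59 to 13.3) above them, and the Fgfr2 ratio was 3.81 with mixed cells left out of the mural-like class. Across the receptor list, 3 of 25 compared genes were higher and 7 lower, with a median ratio of 0.458 against mural-like cells. Among the antagonists, Nog, Grem1, Sost, Dkk1 and Dkk2 had no UMI in members, Dkk3 and Sfrp1 were 4.53-fold (2.52 to 8.39) and 5.63-fold (2.19 to 16.2) above mural-like cells, and Sfrp2 had none against 48.1 CPM there. For this antagonist list, 2 of 14 compared genes were higher and 0 lower, with a median ratio of 0.573 against all other brain cells. Against mural-like cells 2 of 5 were higher and 1 lower, with a median of 2.46.

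Border fibroblasts can signal to immune cells through chemokines and complement. Cxcl12, the ligand of CXCR4, had 0, 4 and 30 UMIs per member and 903 CPM, with 615 in mural-like and 2004 in endothelial-like cells. Il34, a ligand of the microglial receptor CSF1R, was at 243 CPM in members and 193 in mural-like cells, and Csf1, the other ligand, was 9.85-fold (3.92 to 29.4) above mural-like cells. Il33, an alarmin, was at 151 CPM in 14 members and 10.5-fold (5.50 to 21.6) above mural-like cells. Il6, Ccl7, Ccl8, Cxcl1, Cxcl10 and Cxcl13 had no UMI in members. The complement inhibitor Serping1 was 15.8-fold (11.4 to 22.4) above mural-like cells. C3 had no UMI in members. Class I antigen genes B2m, H2-D1 and H2-K1 were at 239.9, 231 and 187 CPM, and 0 of 13 compared antigen presentation genes were higher and 0 lower than in all other brain cells. The class II genes Cd74, H2-Aa and H2-Ab1 had no UMI. In the cytokine list, 4 of 12 compared genes were higher and 1 lower, with a median ratio of 4.51 against all other brain cells, and in the complement list 3 of 10 compared genes were higher and 1 lower, with a median ratio of 2.95. Against mural-like cells 2 of 6 cytokine genes were higher and 2 lower, with a median of 1.37, and 2 of 5 complement genes were higher and 0 lower, with a median of 3.82.

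Nes, whose regulatory elements drive the reporter, had 0, 0 and 9 UMIs per member as the lowest, median and highest. It had 21 UMIs in 10 of 57 members, 9 of them in 1 cell, which gave 62.2 CPM (exact Poisson interval 38.5 to 95.1). The level was 207 CPM in mural-like, 341 in endothelial-like and 40.6 in the remaining brain cells. The ratio to all other brain cells was 0.961 (0.592 to 1.47), and it was 0.573 without the 4 members that had over 50 Mgp UMIs and no Slc6a13, an exclusion chosen after seeing the data. A Nes UMI was found in 17.5% of members (8.75 to 29.9%), 38.98% of mural-like and 60.2% of endothelial-like cells, and after thinning to 1000 UMIs in 3.70%, 17.6% and 26.4%. The remaining brain cells, which were sorted for the same reporter, had a median of 4325 UMIs against 5375 in members and had a Nes UMI in 14.1% of cells, or 3.36% after thinning. How much of these shares came from free RNA in the droplets was not tested. In the lung class Nes was at 37.5 CPM. Vim (vimentin), the usual filament of fibroblasts, was at 652 CPM in members and 414 in mural-like cells. In the contractile list 4 of 14 compared genes were higher and 0 lower than in all other brain cells, with a median ratio of 2.68. Against mural-like cells 1 of 13 was higher and 4 lower, with a median of 0.863. Cald1, Myl9 and Mylk were lower than in mural-like cells, with ratios of 0.235 (0.202 to 0.271), 0.169 (0.125 to 0.225) and 0.152 (0.0798 to 0.266), while Tagln was 5.98-fold (3.12 to 12.1) above them. Of 20 compared cell cycle genes, 13 were lower than in all other brain cells and 1 higher, and Top2a, Cdk1 and Birc5 had no UMI. The list summed to 435 CPM in members, 392 in mural-like cells, 2307 in the remaining brain cells and 487 in the lung class. Against mural-like cells 0 of 6 compared genes were higher and 1 lower, and against the lung class 0 of 18 were higher and 0 lower. Cdkn1c, an inhibitor of the cycle, was at 308 CPM and 4.72-fold (3.83 to 5.77) above all other brain cells.

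Genes outside the lists that ranked among the 15 largest ratios added secreted and enzyme genes. Itih2, which attaches to hyaluronan, and Aox3, an aldehyde oxidase, were 371-fold (222 to 659.5) and 355-fold (192 to 718) above all other brain cells. Srpx2, a secreted sushi-repeat protein, and Fam180a were 355-fold (123 to 1404) and 337-fold (223 to 527) above them. 9930013L23Rik was 323-fold (212 to 511) above them, and Olfml3, a secreted olfactomedin-like protein, was 41.6-fold (22.1 to 88.3) above mural-like cells. Coch (cochlin), an extracellular protein, had 0, 0 and 56 UMIs per member, with more than 10 in 4 cells. Among the 10 smallest ratios to mural-like cells, Rgs4, a brake on G protein signals, and Art3 were lower than in mural-like cells, with 0 and 1 UMIs in members against 476 and 408. Car4, a carbonic anhydrase, had 2 UMIs in members against 978 CPM in mural-like and 1253 in endothelial-like cells. Gm13889 had a ratio of 0.0214 (0.00784 to 0.0469), and the other members of these 10 were Higd1b, Kcnj8, Abcc9, Esam, Cspg4 and Notch3, mural and endothelial markers with at most 3 UMIs in members.

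The mural-like class was itself mixed, and ratios to it moved when the mixed cells were left out. Of its 236 cells, 46 had 5 or more endothelial rule UMIs and 19 had 5 or more of Dcn, Col1a2 and Slc6a13, and 172 cells (503016 UMIs, median 2571 per cell) had neither. With these 172 cells as the reference, a choice made after seeing the data, 44 of 116 list or top-ranked genes higher than mural-like cells had a ratio raised by over 1.5 times, 11 had one lowered by as much and 111 still differed by at least 4-fold, with the reference set to at least 3 UMIs for each gene. The ratios that follow use the UMIs as counted. The ratio became 430.2 (362 to 516) for Ptgds, 232 (41.1 to 9239) for Slc13a4 and 259 (88.2 to 1261) for Spp1. For the collagen Col1a1 it became 524 (144 to 4333), for the proteoglycans Fmod and Lum 234 (41.4 to 9298) and 532 (94.9 to 21068), for Col6a1 at least 46.7 and for the connexins Gjb2 and Gjb6 119 (46.1 to 440.1) and 30.2 (16.1 to 64.03). Among secreted proteins it became 256 (173 to 396) for Apod, 29.6 (13.2 to 82.1) for Igfbp4, 81.9 (52.8 to 135) for Igfbp2, at least 153 for Serpinf1 and 255 (45.1 to 10122) for Wnt4. For the retinoid gene Aldh1a2 it became 271 (48.1 to 10769), for Slc22a6 at least 88.4, for Slc7a11 45.97 (29.5 to 75.8) and for Pdgfra 44.7 (20.1 to 123). Edn3, at 93.9 CPM in the whole mural-like class, was at 1.99 in the 172 cells, Cxcl12 fell from 615 to 215 and Vim from 414 to 237. Of the 116, the 5 that were no longer 4-fold higher were Abca9, Angpt2, Col5a2, Fgfr2 and Prelp, with ratios of 3.62, 3.81, 3.60, 3.81 and 3.76. Of 68 recomputed list genes lower than mural-like cells, 17 were no longer 4-fold lower. Among these the ratio became 0.745 for the lactate carrier Slc16a1, 0.745 for Slc2a1, 0.447 for the taurine carrier Slc6a6, 0.745 for the endothelial receptor Acvrl1 and 0.377 for endoglin (Eng), with members or reference set to at least 3 UMIs. Lower genes went from 6 to 2 in the transporter list, from 7 to 5 in the receptor list, from 6 to 3 in the list of growth factors, from 6 to 3 in the immediate early and heat shock list and from 7 to 1 among the endothelial markers. The level of Slc22a8 was 344 CPM and that of Slc6a20a 916 CPM in the 172 cells, against 429.5 and 726 in members.

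Other settings moved ratios to mural-like cells as well. With no Atp13a5 or endothelial rule UMI allowed, 6 members dropped out, of which 5 were then counted as mural-like, and 33 of 108 list genes higher than mural-like cells had a ratio lowered by over 1.5 times. Of the 108, 13 were no longer 4-fold higher, namely Col18a1 (3.26), Crabp2 (3.12), Dkk3 (3.40), Enpp2 (3.85), Fgfr1 (3.81), Foxc2 (3.81), Igfbp4 (3.32), Inmt (2.62), Itga8 (2.39), Ogn (3.64), Prrx2 (3.16), Ptgfr (2.91) and Slc13a3 (3.26). Matrix genes that stayed above 4-fold were lowered too, with ratios of 12.5 for Efemp1, 21.5 for Fbln5, 11.9 for Col6a2, 12.5 for Col6a3, 35.8 for Col12a1, 19.7 for Col1a1, 4.24 for Col5a1, 40.3 for Lum and 5.04 for Fmod. So were Ptgds (7.30), Apod (24.8), Aldh1a2 (14.7), Slc22a6 (16.1), Bmp7 (9.03), Wnt6 (4.92) and Spp1 (9.34). As a mean over cells, 30 of the 108 ratios rose by over 1.5 times and 7 fell by as much, with 106 for Efemp1, 47.98 for Col6a1, 77.6 for Igfbp2, 2.79 for Col8a1, 3.79 for Col5a2 and 3.94 for Tbx18. With no upper limit of genes 9 rose and 7 fell by over 1.5 times, with 7.47 for Wnt4 and 70.1 for Rbp4, and 10 of 74 lower genes were no longer 4-fold lower, among them Cald1 at 0.364. Without the 4 members that had over 50 Mgp UMIs and no Slc6a13, 6 higher genes were no longer 4-fold higher, namely Col8a1 (0.400), Igfbp4 (2.64), Inmt (2.80), Itga8 (2.14), Ltbp1 (3.87) and Prrx2 (3.89).

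The lung class met the same rule, and its transporters, connexins and transcription factors were set beside those of the brain cells. Dcn, used by the rule, was at 6321 CPM in brain and 7399 in lung, while Slc6a13 and Atp13a5 had no UMI in the lung class, so lung cells met the rule through Dcn and Col1a2. Of the transporter list, 16 of 33 compared genes were higher in brain and 1 lower, with a median ratio of 3.82. Slc22a6 was at least 1087-fold higher in brain, Slc13a4 at least 953-fold and Slc6a20a at least 1497-fold, since none had a UMI in the lung class. Gjb6 was likewise at least 1240.1-fold higher, and Gjb2, with 1 UMI in the lung class, had a ratio of 5864 (1045 to 232350). Gja1 was 34.4-fold (26.4 to 45.03) higher in brain, and the noncoding gene Snhg11, with no UMI in the lung class, was at least 1039-fold higher. Zic1 was at least 1478-fold, Zic2 at least 989.6-fold and Zic4 at least 654-fold higher in brain, and Foxd1 was 696-fold (266 to 2589) higher. Foxc1 and Tbx18 were 15.4-fold (12.7 to 18.7) and 64.8-fold (45.2 to 95.1) higher in brain. Of the factor list, 13 of 43 compared genes were higher and 9 lower, with a median ratio of 0.636. Ptgds had 2 UMIs in the lung class, a ratio of 338648 (93741 to 2796430), and Apod was 196-fold (177 to 218) and Igfbp2 1260.0-fold (772 to 2212) higher in brain. Igf2 was 24.5-fold (22.2 to 27.02), Bmp7 1035-fold (280.1 to 8654) and Wnt4 80.4-fold (56.5 to 117) higher in brain.

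Fibrillar collagens were mostly lower in brain than in the lung class. Col1a1 was at 2082 CPM in brain and 26792 in lung, a ratio of 0.0777 (0.0721 to 0.0837), and Col3a1 had a ratio of 0.0444 (0.0404 to 0.0487). In the fibrillar list 5 of 8 genes were lower in brain and 1, Col11a1, was higher, at 9.83-fold (6.66 to 14.4). Of the elastic and adhesive list, 16 of 29 were lower in brain, among them Postn (periostin) with a ratio of 0.0339 (0.0233 to 0.0476), Mfap5 with 0.0869 (0.0671 to 0.111) and Fbn1 (fibrillin 1) with 0.104 (0.0744 to 0.142). Spp1, at 1 UMI in the lung class, was higher in brain. Col14a1 and Dpt, markers of adventitial fibroblasts, were at 23.7 and 26.7 CPM in brain and 1989 and 1353 in lung. In the basement membrane list 4 of 19 compared genes were higher and 0 lower, with a median ratio of 1.71, and Lama1, with no UMI in the lung class, was at least 574-fold higher and Lamc3 267-fold (125 to 681) higher. Lum, Serpinf1 and Serping1 were at 1057, 912 and 797 CPM in brain and 1114, 1172 and 1146 in lung. Factors used by the lung mesenchyme, Meox2 and Tcf21, had 0 and 9 UMIs in brain members against 277 and 196 CPM in lung. For the lung fibroblast list, 2 of 15 compared genes were higher and 8 lower, with a median ratio of 0.136. Among the 10 smallest ratios, Fmo2, a monooxygenase, Cd34, a sialomucin, and Gm15772 each had 1 UMI in members against 555, 527 and 652 CPM in lung. Hox genes, which set position along the body axis, had no UMI in members and summed to 227 CPM in lung. Of 11 compared, 2 were called lower in brain. Members at 0 were set to 3 UMIs, or 8.89 CPM, so Hox genes at low levels in lung could not be called.

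Immediate early genes are switched on within minutes of a stimulus. Of 24 compared immediate early and heat shock genes, 17 were lower in brain than in the lung class and 1 higher, with a median ratio of 0.0570. Fos was at 41.5 CPM in brain members and 2169 in the lung class, Egr1 at 8.89 and 1688, Junb at 29.6 and 1829.6, and Dusp1 at 11.8 and 572. Against all other brain cells 3 of 25 were higher in members and 5 lower, with a median of 0.462, and against mural-like cells 0 of 18 were higher and 6 lower, with a median of 0.431. In all other brain cells Fos was at 148 CPM and Egr1 at 386, and Egr1 was lower in members than in the cells of their own library as well, with a ratio of 0.0230 (0.00474 to 0.0672). The heat shock gene Hspa8 was at 444 and 417 CPM, and Hspb1 was higher in brain at 60.3-fold (41.6 to 89.1). Median depth was 5375 UMIs per cell in brain and 9156 in the lung class, and the part of depth in these ratios was not tested.

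**Figure D3:**
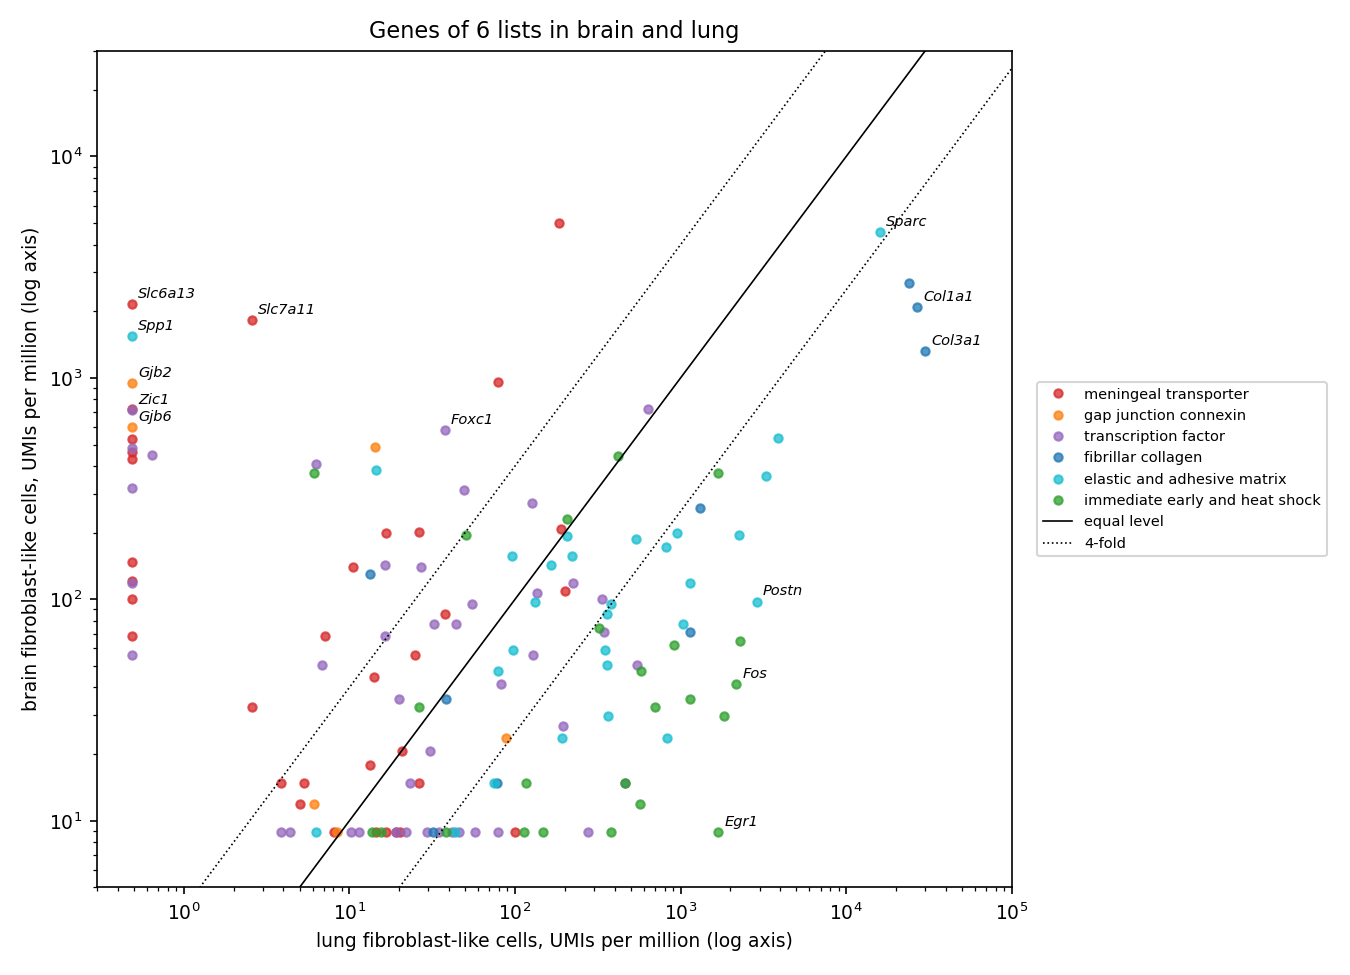
CPM of genes from 6 lists in lung fibroblast-like cells (horizontal, log axis) and brain fibroblast-like cells (vertical, log axis), with lines at equal level and 4-fold and each level set to at least 3 UMIs of its class. Spp1, Gjb2, Gjb6, Zic1 and Slc6a13 sit at the left edge, where the lung class has at most 3 UMIs. Slc6a13 is a gene of the rule that chose the cells and is shown as a description. Col1a1, Col3a1, Postn, Fos and Egr1 lie below the lower 4-fold line.

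The 57 cells differed among themselves in Ptgds. In 13 cells Ptgds had fewer than 10 UMIs, with 7 as the highest, and in 44 cells it had 36 or more, a division drawn after its values were seen. Over 50 Mgp UMIs were found in 5 cells, all with Ptgds under 10, and these held 87.9% of the Mgp UMIs of all members, while the next cell had 48. Of the 7 cells without Slc6a13, 4 had 436, 56, 427 and 57 Mgp UMIs and 0 or 1 Ptgds UMI, and the other 3 had 310, 284 and 1835 Ptgds UMIs. The 4 cells held 10983, 8156, 12122 and 9880 UMIs in all, and the other 3 held 1832, 1406 and 3913. The part of depth in the absence of a Slc6a13 UMI was not tested. The following ratios compare summed levels in the 13 cells with those in the 44, within 1 library, and are descriptions of these cells. Igfbp7, an IGF-binding matrix protein, had a ratio of 53.2 (26.4 to 125) and Ctgf of 9.38 (6.39 to 14.1), and Lum and Col18a1 of 3.30 (2.66 to 4.09) and 3.98 (2.30 to 7.01). Alpl, a phosphatase of mineralising tissue, had all 19 of its UMIs in 3 of the 13 cells, which were among the 4 with over 50 Mgp UMIs and no Slc6a13. In the other direction Slc13a3 had a ratio of 0.0505 (0.00125 to 0.295), the phosphatase inhibitor Ppp1r1a of 0.0538 (0.00642 to 0.200), Fmod of 0.186 (0.0910 to 0.343), Wnt4 of 0.221 (0.118 to 0.381) and Slc22a6 of 0.296 (0.173 to 0.477). Igf2 and Zic1 had ratios of 0.870 (0.750 to 1.01) and 0.871 (0.643 to 1.17), with intervals that include 1, and Apod one of 0.986 (0.922 to 1.05). Gjb2 and Gjb6 had ratios of 0.571 (0.424 to 0.758) and 0.498 (0.334 to 0.723), and 11 of the 13 cells had a Gjb2 UMI. Several of these ratios rest on few cells, and 2 exclusions were tried after seeing the data. Of the 129 Ctgf UMIs of the 13 cells, 85 lay in 1 cell, without which the ratio was 3.66. Without the 4 cells that had over 50 Mgp UMIs and no Slc6a13, 9 cells with Ptgds under 10 remained, and the ratio was 15.5 (6.93 to 39.4) for Igfbp7, 4.92 (3.03 to 8.03) for Ctgf, 2.27 (1.71 to 2.99) for Lum and 4.66 (2.54 to 8.60) for Col18a1. On the low side it was then 0.512 (0.301 to 0.827) for Slc22a6, 0.0875 (0.00217 to 0.511) for Slc13a3, 0.0932 (0.0111 to 0.346) for Ppp1r1a, 0.294 (0.138 to 0.556) for Fmod and 0.300 (0.147 to 0.553) for Wnt4. For Igf2, Apod and Zic1 the ratio turned from below to above 1, at 1.44 (1.23 to 1.66), 1.53 (1.43 to 1.64) and 1.10 (0.779 to 1.53), and for Gjb2 and Gjb6 it was 0.759 (0.542 to 1.04) and 0.660 (0.419 to 1.001). The median depth was 6711 UMIs in the 13 cells and 5142 in the 44, and its part in these ratios was not tested. Ptgds itself stayed in the totals, at 153665 CPM in the 44 cells and 154 in the 13. Counting it raises every other ratio of the 13 cells to the 44, and these ratios were not recomputed without it. The ratios near 1, and those that turned above 1, are therefore given only with Ptgds counted.

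**Figure D4:**
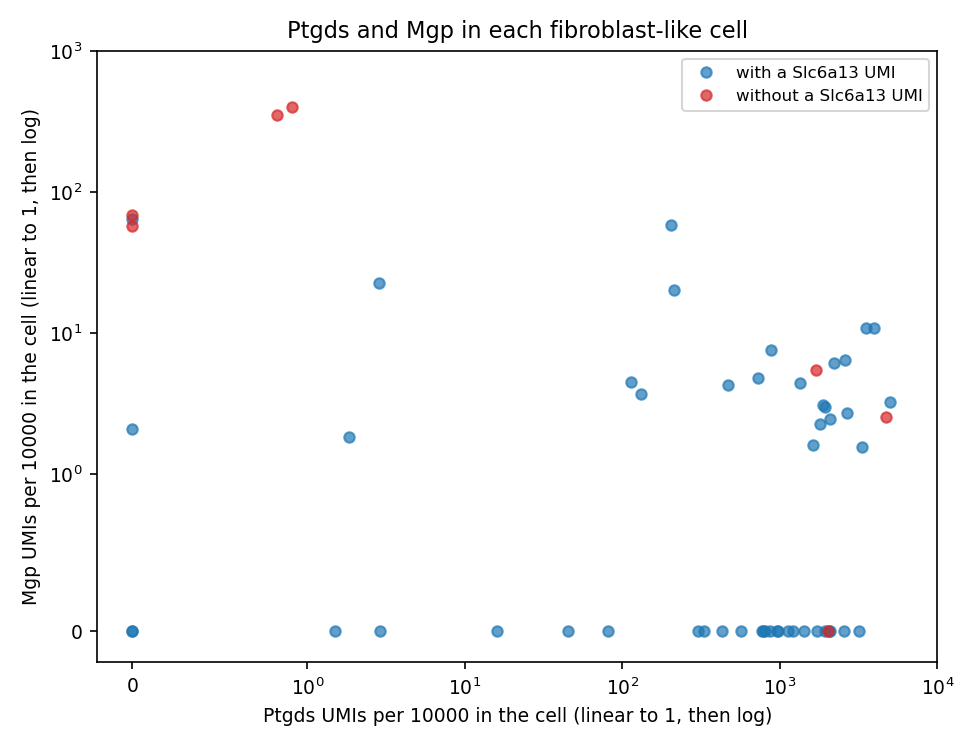
Mgp against Ptgds in each of the 57 fibroblast-like cells, both as UMIs per 10000 UMIs of the cell on axes linear to 1 and logarithmic above, with cells lacking a Slc6a13 UMI in red. The 4 red cells that lie at the upper left have at most 1 Ptgds UMI and over 50 Mgp UMIs, and the other 3 lie with the Ptgds-bearing cells at the right.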

How the data were processed

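GFP-positive cells of brain and lung were measured in 1 single-cell RNA-seq library per tissue. Per the labels and the submitters' processing notes, the authors demultiplexed the reads (bcl2fastq 2.19.1.403), extracted barcodes and collapsed molecules (UMI-tools 1.0.0), aligned to mm10 (STAR 2.7.1a) and assigned reads to genes (featureCounts 1.6.4), and deposited whole-number UMI counts per gene and cell. Whether counting used the strand is not given in the sources used here. The files carry no cell annotation, so classes were rebuilt from the deposited counts, and a difference from the study may come from these rebuilt classes.

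Cells with over 200 and under 4000 genes and under 40% mitochondrial UMIs were kept. The members and the 42 gene lists (696 genes, of which 690 had counts) were chosen with earlier results of these data known. UMIs were summed per class, and ratios of CPM were given exact 95% binomial intervals, which, like the Poisson and Clopper-Pearson intervals of levels and shares, cover counting error only. A class at 0 was set to 3 UMIs for a lower bound of a fold. For shares of cells with a UMI, cells were also thinned to 1000 UMIs, leaving out shallower cells. Doublets were called with Scrublet in scanpy 1.11.5 at an expected rate of 0.06 and left in. With 1 library per tissue no test was made. Named genes were the rule genes and markers, up to 8 examples of each list by UMIs or size of ratio with genes at 0 listed beside them, the 15 largest ratios in each comparison (at least 20 UMIs, in at least 25% of members) and the 10 smallest against mural-like and lung cells. Some genes are not reported here. Genes named for their pattern among the 57 cells were chosen after their values were seen. Gene positions came from a GENCODE annotation and promoters from a RefSeq table, both of GRCm38.p6. The intervals and size rule were tried on simulated class sums drawn with counting error only. Those sums held no spread between cells, so the trial says nothing about genes carried by few cells. Python 3.11.15, numpy 2.4.6, scipy 1.17.1 and pandas 2.3.3 were used.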

Additional observations from a re-analysis of the deposited data

Results flagged for a closer look

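Outside the cell filter, 5 brain barcodes met the fibroblast rule, and all of them had 4000 genes or more. They entered no comparison of the report, and they are listed here because they lie outside the data it used. Keeping them raised the class to 62 cells.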

How the results depend on the processing

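Of 112 recomputed counts of cells, counts of genes and Nes ratios, 98 stayed within 1.5 times, or within the interval of the ratio, and 14 did not. At a 2-fold limit 1086 genes were higher and 2825 lower than in all other brain cells, 567 and 1671 against mural-like cells, and 994 and 1211 against the lung class. At an 8-fold limit the counts were 336 and 284, 125 and 179, and 224 and 127. With a minimum of 50 UMIs over both classes 134 genes were higher than in mural-like cells. The number of cells ran from 51, with no Atp13a5 or endothelial UMI allowed, to 62. The alternatives that follow were chosen after seeing the data, as were leaving Ptgds out of the totals and leaving out cells with macrophage UMIs, which changed no call count by over 1.5 times. Without the 4 cells that had over 50 Mgp UMIs and no Slc6a13, the Nes ratio was 0.573 and the Col8a1 ratio to mural-like cells turned to 0.400, and 42 of the 46 Col8a1 UMIs lay in 1 cell. Without the 64 mixed mural-like cells, ratios to mural-like cells turned to 1.99 for Kdr, 3.41 for Klf2, 2.48 for Klf4, 2.38 for Ltbp4, 2.98 for Ocln and 1.49 for Slco1a4. Over all alternatives, 7326 ratios of called genes were recomputed, of which 6935 stayed within their intervals, 384 moved outside and 7 reversed. No paired analysis was possible because each tissue has 1 library, and no library could be left out for the same reason. The 57 cells hold 337602 UMIs, so a gene at 0 may still be at up to 8.89 CPM.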
